A study of Mus musculus with 2 samples.

Results

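The barcodes described here were chosen by a gate on matrix genes in droplet-based 3' single-cell RNA sequencing of CT26 tumours, and they carry the working label of tumour fibroblasts. A barcode was kept with at least 200 genes, at most 10% mitochondrial transcripts and at least 1000 unique molecular identifiers (UMIs, each standing for 1 captured transcript). A kept barcode was in the gate when Dcn, Lum, Pdgfra and Dpt together had at least 3 UMIs and at least 0.1% of its UMIs, and when it had 0 UMIs of Ptprc, which encodes the leukocyte antigen CD45. The gate held 399 of 13212 kept barcodes (3.02%), 378 in the PTIR1 library and 21 in the mock library. CT26 is a transplantable mouse colon carcinoma cell line that grows in BALB/c mice. The tumours were grown in that strain and either expressed PTIR1, a factor that the series title calls a suppressor of the immunoproteasome, or carried the mock genotype. There was 1 library per group, and the labels call the source of both tumour-infiltrating lymphocytes. The number, sex and age of the animals, the time of harvest, and any sort of the cells were not given in the sources used here. With 1 library per group no difference was tested. The 95% intervals reflect counting error alone.

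The PTIR1 library held 9006 barcodes and 98540561 UMIs, and the mock library 10833 barcodes and 95166611 UMIs. The libraries shared 30 barcode sequences, of which 1 was a gated PTIR1 barcode and 0 were gated mock barcodes. Gated barcodes were deep, with a median of 22779 UMIs in the PTIR1 library and 32576 in the mock library. They summed to 8790622 PTIR1 and 886970 mock UMIs. The deepest mock barcode alone held 18.3% of the mock sum, so values with and without it are given where it decides them. The PTIR1 RNA itself was not analysed here, so the labels were not checked against it.

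Fibroblasts build and remodel connective tissue by secreting collagens, small leucine-rich proteoglycans, glycoproteins and the proteases that cut them. Dcn (decorin) and Lum (lumican) are small leucine-rich proteoglycans that bind collagen fibrils, Dpt (dermatopontin) is a dermal matrix protein, and Pdgfra is a receptor for platelet-derived growth factor. These genes are also transcribed by some transformed cells of mesenchymal character, so a gate on them does not by itself separate host from tumour cells.

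The gate took 5.75% of kept PTIR1 barcodes (exact binomial interval 5.20 to 6.34%) and 0.316% of kept mock barcodes (0.196 to 0.483%), a ratio of 18.2 (normal interval on the log scale, 11.7 to 28.2). Shares describe the barcodes captured, not the tumours. The cut did not fall in a gap. In the PTIR1 library 125 gated barcodes lay just inside it, with under 0.2% of their UMIs from the gate genes, and 103 barcodes that met the other conditions lay just outside it, at 0.05 to 0.1%. In the mock library these numbers were 8 and 18. The median share of UMIs from the gate genes was 0.278% in gated PTIR1 barcodes and 0.230% in gated mock barcodes. Dcn supplied 94.2% of the gate-gene UMIs in the PTIR1 library and 97.1% in the mock library, so the gate was in effect a gate on Dcn, and its members are called Dcn-gated barcodes. The limit on Ptprc had removed a further 164 PTIR1 and 6 mock barcodes. When every kept barcode was thinned to 1000 UMIs and counted with at least 1 UMI of the gate genes and 0 of Ptprc, a looser rule, 12.3% of PTIR1 and 1.76% of mock barcodes passed.

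Dcn had 3334 UMIs per 1000000 UMIs (CPM) in the gated PTIR1 barcodes and 2196 in the gated mock barcodes. Over single barcodes it spanned 611.6 to 21392 CPM in the PTIR1 library, with a median of 2645. In the mock library it spanned 1045 to 10865 CPM, with a median of 2297. The mock span lay inside the PTIR1 span, and the cut of the gate limits the low end of both. The other gate genes were sparser. Lum had 75.1 CPM in the PTIR1 library, from 16.9% of its gated barcodes, and 2.25 CPM in the mock library, where 1 of 21 barcodes held its 2 UMIs. Pdgfra had 65.6 CPM in the PTIR1 library and 28.2 CPM in the mock library, and Dpt 65.2 CPM against 34.95 CPM. These 4 genes chose the barcodes, so their levels are a description.

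The label was checked against genes that the gate did not use, and part of them went against it. Of 15 fibroblast genes outside the gate, 13 had at least 50 UMIs in the gate over both libraries. Against the CT26 marker comparator, described below, 12 of 13 measured (PTIR1) and 10 of 10 (mock) were higher in the gate. At least 2-fold higher were 5 and 4, where 5.73% and 6.36% of all genes were. The rule made that contrast, so it supports nothing. Gsn had 376.4 CPM (PTIR1) and 284.1 CPM (mock), Serpinf1 272.3 CPM and 138.7 CPM, and Sparc 232.6 CPM and 393.5 CPM. Col1a2, a chain of type I collagen, had 1070 CPM in the PTIR1 library and 837.7 CPM in the mock library. Prrx1, a mesenchymal transcription factor, had 507 CPM and 395.7 CPM in the same order, and Pcolce, which aids procollagen processing, had 626.3 CPM and 559.2 CPM. Col1a1, the partner chain of type I collagen, had 68.8 CPM in the PTIR1 library and 66.5 CPM in the mock library. Postn, Tcf21 and Dpp4 had 0 UMIs among the 9677592 UMIs of the gate, which allows up to 0.310 CPM (3 counts of that total). Thy1, a surface glycoprotein of many fibroblasts, had 1.14 CPM in the PTIR1 library and 1.13 CPM in the mock library, against 305.6 CPM and 323.4 CPM in barcodes gated on T and NK cell genes. Acta2 and Tagln, contractile genes of myofibroblasts and smooth muscle, had 7 and 2 UMIs in the whole gate. Postn, Dpp4, Acta2 and Tagln are not among the 15 and come from other lists. Summed markers of other cells the gate could hold had 1.59 CPM (PTIR1) and 2.25 CPM (mock) for endothelial cells, 0.569 and 0 CPM for pericytes, 2.39 and 2.25 CPM for Schwann cells, and 8.19 and 4.51 CPM for skeletal muscle. Mesothelial markers summed to 24.6 CPM (PTIR1) and 32.7 CPM (mock), nearly all from Msln, with Wt1 at 0 UMIs. Keratinocyte markers summed to 22.3 CPM (PTIR1) and 32.7 CPM (mock), all from Krt10, with Krt5 and Krt14 at 0 UMIs.

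RNA from the Y chromosome separated the gate from the immune cells of the same libraries. Ddx3y, Eif2s3y, Kdm5d and Uty are Y-linked genes transcribed in most male cells. Together they had 21 UMIs in gated PTIR1 barcodes, or 2.39 CPM (exact Poisson interval 1.48 to 3.65), and 2 UMIs in gated mock barcodes, or 2.25 CPM (0.273 to 8.15). In barcodes gated on genes of macrophages, neutrophils, T and NK cells, B cells or mast cells they had 101.7 to 207.7 CPM over both libraries. At the lowest of these levels in its own library the gate would have held 1030 Y-linked UMIs in the PTIR1 library and 90.2 in the mock library. A Y-linked UMI was found in 20 of 378 PTIR1 barcodes (5.29%) and in 2 of 21 mock barcodes (9.52%), although the gated barcodes were deeper than the T and NK barcodes, of which 77.1% and 71.0% had one. Xist, transcribed from an inactive X chromosome, had 5 UMIs (0.569 CPM) in the gated PTIR1 barcodes and 1 UMI (1.13 CPM) in the gated mock barcodes. In the immune classes Xist had 0 to 0.241 CPM. Barcodes gated on the CT26 tumour markers Krt18, Tm4sf1, Areg and Krt8 and lying outside the Dcn gate, called the CT26 marker comparator here, had a Y-linked level of 7.38 CPM in the PTIR1 library (224 barcodes) and 2.65 CPM in the mock library (162 barcodes). The gate's level was thus far below that of the immune cells, below that of the comparator in the PTIR1 library, and within its interval in the mock library. Fibroblasts of the same host would carry the same Y chromosome as its immune cells. These values go against the label, and no cell type name is given to the barcodes.

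**Figure D1:**
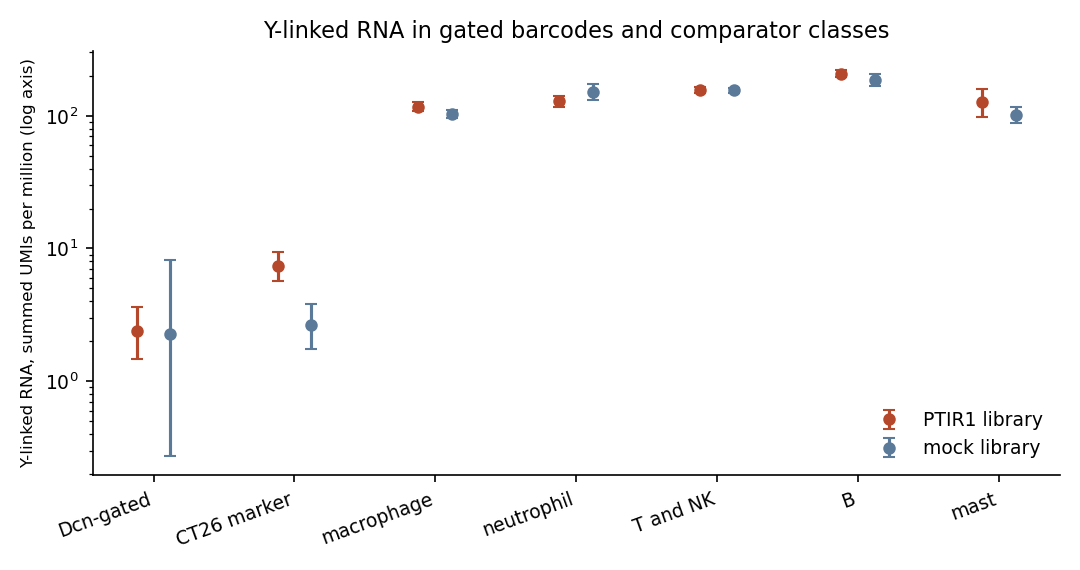
Summed level of the Y-linked genes Ddx3y, Eif2s3y, Kdm5d and Uty, in CPM on a log axis, in Dcn-gated barcodes, the CT26 marker comparator and 5 immune classes of each library; points are levels and bars exact Poisson 95% intervals. The gated barcodes sit at 2.39 CPM (PTIR1) and 2.25 CPM (mock), and the immune classes between 101.7 and 207.7 CPM.

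The whole profile of the gate also lay close to that comparator. Across 10559 genes, Pearson's r of log2(CPM + 1) with the CT26 marker comparator was 0.933 within the PTIR1 library and 0.936 within the mock library. The gated PTIR1 and gated mock barcodes had an r of 0.949 with each other. Across libraries r was 0.886 for the gated PTIR1 barcodes with the mock comparator and 0.936 for the gated mock barcodes with the PTIR1 comparator. With the 5 immune classes of either library r was 0.494 to 0.632. These values are descriptions, the genes are not independent, and summed profiles from 1 library share its depth and its free RNA. No class of host stromal cells was there to compare (the endothelial class held 5 barcodes). These correlations therefore cannot tell host stromal cells from tumour cells. Tm4sf1, a tetraspanin-like surface protein and 1 of the tumour markers, had 819.5 CPM in gated PTIR1 barcodes and 851.2 CPM in gated mock barcodes, and 1265 CPM and 1316 CPM in the comparator. The comparator had to pass 0.1% on a sum that is mostly Tm4sf1, so its higher level follows from its definition. Krt18 had only 6.48 CPM in gated PTIR1 barcodes and 6.76 CPM in gated mock barcodes. Cldn4 and Epcam had 0 UMIs in the gate, and Epcam had 0.234 CPM (PTIR1) and 0 CPM (mock) in the comparator. Of the listed tumour markers, 3 of 4 measured in the PTIR1 library and 1 of 3 in the mock library were at least 2-fold lower in the gate, and 0 higher. Over all genes 8.51% and 8.23% were lower. Krt18, Tm4sf1, Areg and Krt8 are on that list and chose the comparator. Their lower levels in the gate follow from the rule, so these counts support nothing. In all, 100 gated PTIR1 and 6 gated mock barcodes passed the CT26 marker gate too (26.6% of the 399). Cdkn2a, which encodes cell cycle inhibitors, had 0 UMIs in the gate, and 0 CPM (PTIR1) and 0.0947 CPM (mock) in the comparator, against 5.05 CPM and 6.15 CPM in macrophage barcodes. Counted together, the gate and the comparator held 602 PTIR1 and 183 mock barcodes, of which the gate was 62.8% (58.8 to 66.7%) in the PTIR1 library and 11.5% (7.25 to 17.0%) in the mock library.

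Against the CT26 marker comparator the gate had higher levels of single matrix genes such as Aspn, Ogn and Col3a1, while whole matrix lists were mixed, and it had lower levels of cell cycle genes. This contrast is the one that the rule made, since it set Dcn high in the gate and tumour markers high in the comparator, so its values are a description and support nothing. Of 8999 genes with at least 50 UMIs over gate and comparator in each library, 185 (2.06%) were at least 2-fold higher in the gate in both libraries and 365 (4.06%) at least 2-fold lower in both. Aspn (asporin), a small leucine-rich proteoglycan, had 587.3 CPM in gated PTIR1 barcodes against 77.2 CPM in the PTIR1 comparator, and 249.2 CPM against 6.53 CPM in the mock library. Ogn (osteoglycin) had 619.3 CPM against 197.7 CPM in the PTIR1 library and 421.7 CPM against 19.6 CPM in the mock library. Omd (osteomodulin) had 110.0 CPM against 29.3 CPM in the PTIR1 library and 73.3 CPM against 5.97 CPM in the mock library. Col3a1, the chain of type III collagen, had 433.4 CPM against 90.5 CPM in the PTIR1 library and 166.9 CPM against 9.47 CPM in the mock library. In the PTIR1 library, where 5.73% of all genes were at least 2-fold higher in the gate, 1 of 4 fibrillar collagens, 6 of 9 other collagens, 5 of 11 proteoglycan and hyaluronan genes, 7 of 11 matricellular genes, 3 of 9 elastic fibre genes and 1 of 12 collagen processing genes were. In the mock library, where 6.36% of all genes were, these counts were 3 of 4, 2 of 7, 5 of 11, 6 of 9, 2 of 8 and 2 of 11. At least 2-fold lower were 2 proteoglycan and hyaluronan genes and 1 matricellular gene in each library, 2 elastic fibre genes in the PTIR1 library and 1 in the mock library, and 1 collagen processing gene in the PTIR1 library. Of the complement genes, whose products opsonise cells, 4 of 8 were at least 2-fold higher in the gate in the PTIR1 library and 5 of 6 in the mock library. C1s1, a protease of the classical pathway, had 237.0 CPM in gated PTIR1 barcodes against 78.4 CPM in the comparator, and 180.4 CPM against 21.8 CPM in the mock library. The matrix genes were present in the comparator as well, at lower levels, and more so in the PTIR1 library than in the mock library. Other genes among the 15 furthest above the comparator were Apod, a lipid carrier, Rarres2, which encodes the chemoattractant chemerin, Selenop, a selenium carrier, Pmepa1, a brake on transforming growth factor beta signalling, and the growth factor receptor Pdgfrb. Pdgfrb had 95.6 CPM against 29.9 CPM in the PTIR1 library and 42.8 CPM against 6.91 CPM in the mock library.

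Single barcodes, thinned to 1000 UMIs so that depth was equal, showed the same order. Aspn had a UMI in 32.8% of gated PTIR1 barcodes (exact binomial interval 28.1 to 37.8%), in 8.04% of PTIR1 comparator barcodes and in 1.40% of PTIR1 barcodes gated on B cell genes, which should lack it. In the mock library Aspn had a UMI in 33.3% of gated barcodes (14.6 to 57.0%), in 0.617% of comparator barcodes and in 0 of 427 B barcodes, which allows up to 0.860%. Without thinning, Aspn had a UMI in 78.0% of gated PTIR1 and 57.1% of gated mock barcodes. The gate therefore held barcodes with no Aspn UMI at any depth, 83 of 378 in the PTIR1 library and 9 of 21 in the mock library.

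The 18 listed cell cycle genes were lower in the gate than in the comparator. All 18 were at least 2-fold lower in the PTIR1 library, where 8.51% of 10183 genes were, and 13 of 18 in the mock library, where 8.23% of 9086 genes were. The median log2 ratio was -3.44 in the PTIR1 library and -2.46 in the mock library, beside 0.09 and 0.01 over all genes. Under the alternative settings this median ranged from -3.57 to -2.31 in the PTIR1 library and from -3.54 to -0.94 in the mock library. Cenpf, a kinetochore protein of dividing cells, had 6.37 CPM in gated PTIR1 barcodes against 140.2 CPM in the comparator, 22.01-fold lower (exact conditional interval 16.8 to 29.3), and 19.2 CPM against 285.1 CPM in the mock library, 14.9-fold lower (9.27 to 25.6). Mki67, the proliferation antigen Ki-67, had 5.12 CPM against 79.1 CPM in the PTIR1 library and 24.8 CPM against 198.9 CPM in the mock library. In the mock gate 90.9% of the Mki67 UMIs came from 1 barcode. Of the 15 genes furthest below the comparator, most have known roles in mitosis or cytokinesis, among them Prc1, Birc5, Anln and Bub1.

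**Figure D2:**
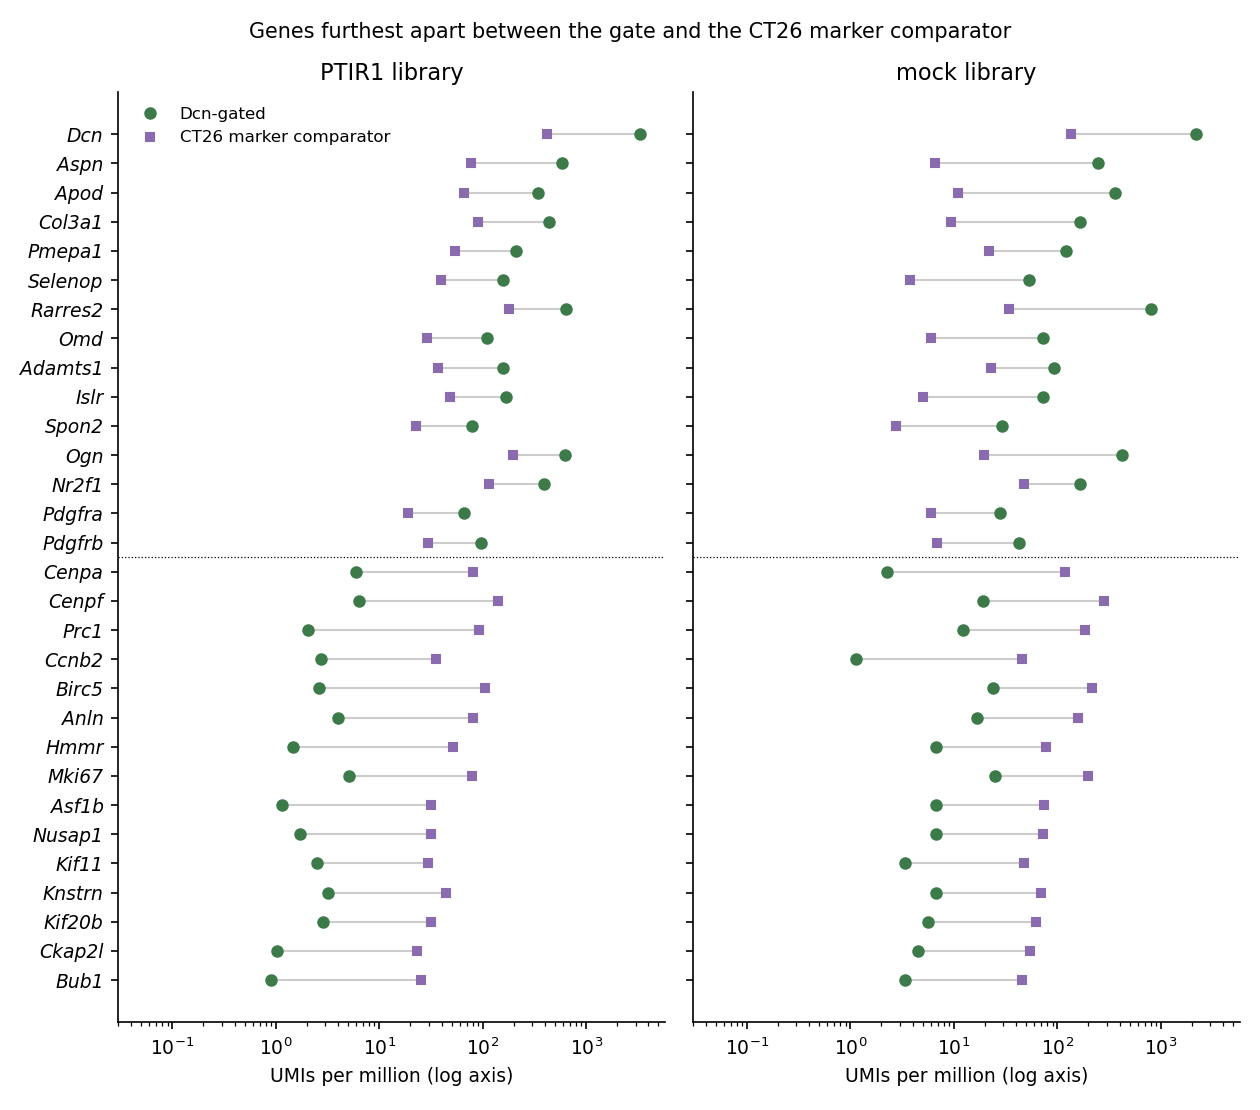
Level in CPM, on a log axis, of the 15 genes furthest above (top) and the 15 furthest below the CT26 marker comparator in both libraries; circles are Dcn-gated barcodes and squares the comparator, with the PTIR1 library on the left and the mock library on the right. In the PTIR1 library Aspn has 587.3 CPM in the gate and 77.2 CPM in the comparator, and Mki67 has 5.12 CPM in the gate and 79.1 CPM in the comparator.

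Aspn, Omd and Ogn lie side by side on chromosome 13, within 80.1 kb from the first base of Aspn to the last base of Ogn. In GENCODE vM21 (mm10) Aspn spans chr13:49544443-49567565, Omd chr13:49582462-49592822 and Ogn chr13:49608046-49624501, all on the plus strand. Dcn (chr10:97479609-97518143) and Lum (chr10:97565128-97572703) are neighbours on the plus strand of chromosome 10. The 150 bases before the RefSeq start (build GRCm38.p6, plus strand) of the 3 chromosome 13 genes are shown because these neighbours were high together in the gate. That of Mmp3 is shown because, among genes higher in PTIR1 than in mock, its ratio was the furthest from 1 by the interval end nearest to 1. The windows are chr13:49544293-49544442, chr13:49582312-49582461, chr13:49607865-49608014 and chr9:7445672-7445821. Capitals mark matches on either strand to TGANTCA, the element of AP-1 (the factor made of Fos and Jun proteins), and to GGAATG, the element of TEAD factors. These elements do not overlap each other in the windows shown.
Aspn: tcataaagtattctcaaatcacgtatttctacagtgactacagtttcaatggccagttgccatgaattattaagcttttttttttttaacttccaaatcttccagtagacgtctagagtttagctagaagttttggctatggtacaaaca
Omd: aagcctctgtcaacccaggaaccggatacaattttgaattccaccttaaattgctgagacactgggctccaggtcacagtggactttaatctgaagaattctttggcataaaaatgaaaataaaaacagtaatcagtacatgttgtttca
Ogn: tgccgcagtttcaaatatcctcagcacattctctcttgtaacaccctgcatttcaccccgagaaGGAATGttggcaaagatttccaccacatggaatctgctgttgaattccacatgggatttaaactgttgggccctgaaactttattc
Mmp3: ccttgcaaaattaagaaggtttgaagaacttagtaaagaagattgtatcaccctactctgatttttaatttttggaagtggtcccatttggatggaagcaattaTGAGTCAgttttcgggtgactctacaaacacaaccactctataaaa
TGANTCA occurred in 4.24% of 32851 promoter windows of this length and GGAATG in 7.59%. The Mmp3 window held 1 TGANTCA match, 46 bases before the start, and the Ogn window 1 GGAATG match, 86 bases before it. The Aspn and Omd windows held neither string. A match is a description of the letters only.

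Between the libraries, gated PTIR1 barcodes had more RNA of matrix proteases, non-fibrillar collagens and immediate early genes, and less of interferon gamma response, immunoproteasome and cell cycle genes, than gated mock barcodes, the lower levels resting in large part on single mock barcodes, as given with each list. Of 9040 genes with at least 50 UMIs over both, 733 (8.11%) were at least 2-fold higher and 366 (4.05%) at least 2-fold lower in the PTIR1 library, with a median log2 ratio of 0.04. Each list count between the libraries below is to be read beside these shares. The mock side rests on 21 barcodes, so a ratio can turn on a few of them, and animal, library and genotype cannot be told apart.

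Mmp3 (stromelysin-1), a protease that cleaves proteoglycans and activates other metalloproteinases, had 551.8 CPM in gated PTIR1 barcodes and 19.2 CPM in gated mock barcodes, a ratio of 28.8 (exact conditional interval 18.0 to 49.5). It had a UMI in 42.3% of PTIR1 and 23.8% of mock barcodes, and the median barcode had 0 CPM in both libraries. The highest barcode reached 9025 CPM in the PTIR1 library and 287 CPM in the mock library. Mmp3 differed in the same direction in the CT26 marker comparator, with 50.1 CPM in the PTIR1 library and 0.947 CPM in the mock library. Of 12 measured proteases and inhibitors, 7 were at least 2-fold higher and 1 at least 2-fold lower in the PTIR1 gate, with a median log2 ratio of 1.61. Timp1, an inhibitor of metalloproteinases, was the 1 lower member, with 170.0 CPM in the PTIR1 gate and 493.8 CPM in the mock gate.

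Among collagens, 4 of 9 measured non-fibrillar chains were at least 2-fold higher and 0 lower (median log2 ratio 0.88), and 1 of 4 fibrillar chains was higher (median 0.50). Col6a1, Col6a2 and Col6a3, the chains of the microfibrillar type VI collagen, were among the higher 4. Col6a1 had 165.4 CPM in the PTIR1 gate and 38.3 CPM in the mock gate, a ratio of 4.31 (3.07 to 6.26). Col6a2 had 257 UMIs in the PTIR1 gate and 0 in the mock gate, which is at least 8.64-fold higher against the 3 counts that a count of 0 allows. Col6a3 had 241 and 2 UMIs, a ratio of 12.2 (3.33 to 101). Col1a1 and Col1a2 had ratios of 1.03 (0.791 to 1.38) and 1.28 (1.19 to 1.38), and Col3a1 of 2.60 (2.20 to 3.08). Of 11 measured genes of collagen processing, including the lysyl hydroxylases Plod1 and Plod3, 0 were at least 2-fold higher and 1 was lower (median 0.15).

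Of 11 measured proteoglycan and hyaluronan genes, 3 were at least 2-fold higher and 0 lower (median 0.55). Bgn (biglycan), a close relative of decorin, had 136.6 CPM in the PTIR1 gate and 28.2 CPM in the mock gate, a ratio of 4.85 (3.27 to 7.52). Aspn had a ratio of 2.36 (2.06 to 2.71), Ogn of 1.47 (1.32 to 1.64) and Dcn of 1.52 (1.45 to 1.59). Of 11 matricellular genes, which encode secreted proteins that signal from the matrix, 5 were at least 2-fold higher and 0 lower (median 0.86). Ccn2, a connective tissue growth factor, had 88.4 CPM (PTIR1) and 27.1 CPM (mock), and Thbs2 (thrombospondin-2) had 254.4 CPM and 113.9 CPM. Tnxb, the matrix protein tenascin-X, had 185 UMIs in the PTIR1 gate and 0 in the mock gate, at least 6.22-fold higher. Spp1 (osteopontin), an acidic phosphoprotein, had 9785 CPM and 8532 CPM, and it had a UMI in every gated barcode.

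Mgp (matrix Gla protein), an inhibitor of calcification, showed how uneven single barcodes were. It had 2118 CPM in gated PTIR1 barcodes and 520.9 CPM in gated mock barcodes, a ratio of 4.07 (3.71 to 4.47). The PTIR1 median was 391.5 CPM with a highest barcode of 42795 CPM, and the mock median was 0 CPM with a highest barcode of 6417 CPM. In the mock library 47.0% of the Mgp UMIs came from 1 of 21 barcodes, and without it the ratio was 7.38. Left out in the same way, the mock barcode with the largest share of a gene's UMIs moved the ratio of Mmp3 to 43.4 and that of Ccn2 to 4.93. Other genes furthest above mock were Dio2, which activates thyroid hormone, with 137.4 CPM and 14.7 CPM, the glutamate transporter Slc1a2, with 123.8 CPM and 12.4 CPM, and Crip1, with 194.8 CPM and 31.6 CPM. The 11 Slc1a2 UMIs of the mock gate lay in 1 barcode. With each barcode weighing the same, the log2 ratio of Crip1 was 0.49 rather than 2.63.

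Immediate early genes are switched on within minutes by growth factors or stress, tissue dissociation included. Of 19 measured, 14 were at least 2-fold higher and 1 at least 2-fold lower in the PTIR1 gate (median log2 ratio 1.19). Fos had 2351 CPM in the PTIR1 gate and 892.9 CPM in the mock gate, a ratio of 2.63 (2.45 to 2.83), and Klf2 had 1136 CPM and 260.4 CPM, a ratio of 4.36 (3.83 to 4.99). Fosl1, another AP-1 member, was lower, with 9.67 CPM and 37.2 CPM. The summed list had a median of 18516 CPM per gated PTIR1 barcode and 9839 CPM per gated mock barcode. It moved with the library in other classes too, with medians of 13246 CPM (PTIR1) and 3338 CPM (mock) in the CT26 marker comparator, and 9245 CPM and 7210 CPM in T and NK barcodes. Its part in the other differences was not tested.

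**Figure D3:**
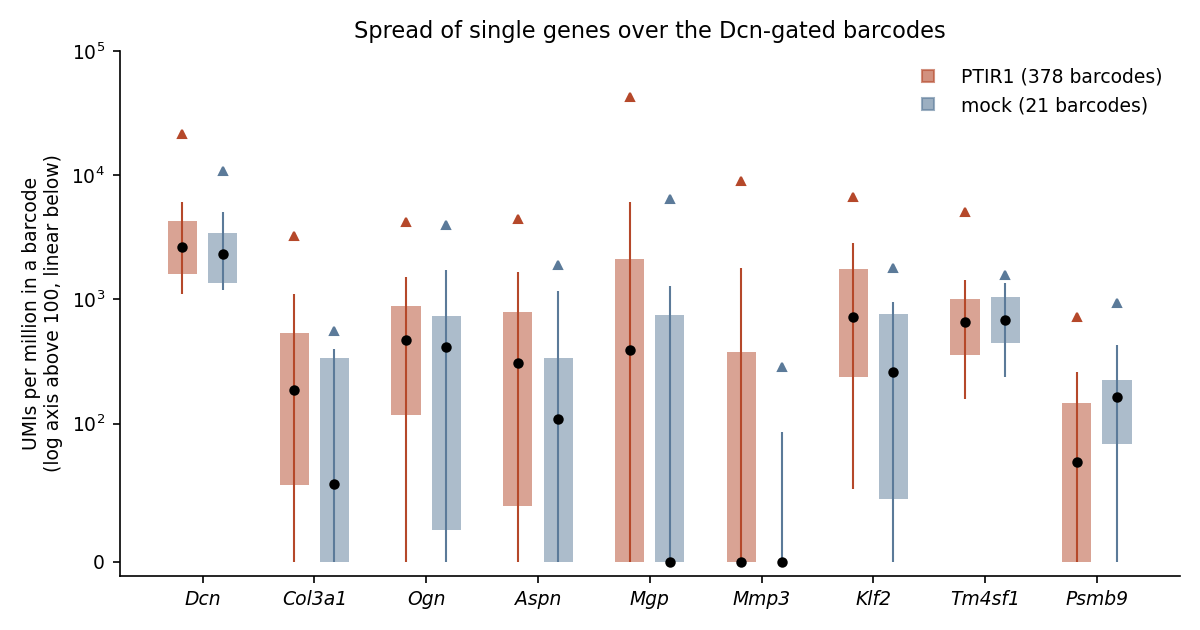
Level of 9 genes in single Dcn-gated barcodes, in CPM on an axis that is linear below 100 and logarithmic above, with PTIR1 left of mock for each gene; dots are medians, boxes the interquartile range, lines the 10th to 90th percentiles and triangles the highest barcode. Mmp3 has a median of 0 in both libraries, with a highest barcode of 9025 CPM (PTIR1) and 287 CPM (mock).

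Interferon gamma induces guanylate-binding proteins, immunity-related GTPases and the immunoproteasome, a form of the proteasome that cuts proteins into peptides for MHC class I. Of 18 measured genes of this response, 1 was at least 2-fold higher and 13 at least 2-fold lower in the PTIR1 gate (median log2 ratio -1.41). Gbp4, a guanylate-binding protein, had 21.0 CPM in gated PTIR1 barcodes and 138.7 CPM in gated mock barcodes. Cxcl9, a chemokine that attracts T cells, had 1.93 CPM in the PTIR1 gate and 136.4 CPM in the mock gate, 70.5-fold lower in PTIR1 (42.3 to 125). These differences rested heavily on the deepest mock barcode and on 1 cluster. A single barcode held 119 of the 121 mock Cxcl9 UMIs and 79.7% of the mock Gbp4 UMIs. Without the deepest mock barcode the median of the list was -0.73, with each barcode weighing the same it was -1.29, and without cluster 3, described below, it was -0.24. Without the deepest mock barcode 5 of 16 measured genes of the list were at least 2-fold lower. In the same 3 settings Cxcl9 had a log2 ratio of -0.51, -3.64 and -0.83, instead of -6.14. The summed list, 560.6 CPM in the PTIR1 gate and 1743 CPM in the mock gate, was lower in PTIR1 in other classes too. It had 343.3 CPM (PTIR1) and 658.2 CPM (mock) in the CT26 marker comparator, 1542 CPM and 3174 CPM in macrophage barcodes, and 2316 CPM and 2440 CPM in T and NK barcodes. The medians per comparator barcode ran the other way, at 330.6 CPM (PTIR1) and 244.6 CPM (mock).

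The 3 catalytic immunoproteasome subunits Psmb8, Psmb9 and Psmb10 were each at least 2-fold lower in the PTIR1 gate, and the 2 activator subunits Psme1 and Psme2 were lower by less (median of the 5, -1.32). Psmb9 had 106.9 CPM in gated PTIR1 barcodes and 315.7 CPM in gated mock barcodes, 2.95-fold lower (2.58 to 3.39), with medians per barcode of 72.2 CPM and 163.9 CPM. Psmb8 had 144.1 CPM and 398.0 CPM, and Psmb10 had 94.0 CPM and 234.5 CPM. Summed, the 5 genes had 682.4 CPM (PTIR1) and 1536 CPM (mock) in the gate, and 754.6 CPM and 1097 CPM in the CT26 marker comparator. In macrophage barcodes they had 1484 CPM and 2288 CPM, and in B barcodes 1315 CPM and 1294 CPM. The 7 constitutive subunits had a median of -0.34, with 0 of 7 past 2-fold in either direction. Without the deepest mock barcode, which held 54.3% of the mock Psmb9 UMIs, the immunoproteasome median was -0.72 and 0 of 5 were 2-fold lower, and without cluster 3 it was -0.68. All 12 measured MHC class I genes had ratios under 1 and none was 2-fold lower (median -0.57). H2-D1 had 4185 CPM in the PTIR1 gate and 5220 CPM in the mock gate, and Tap1, which carries peptides to MHC class I, had 35.2 CPM and 65.4 CPM. The sources used here do not say how reads were split among near-identical H2, Gbp and Ifit genes, so values of single members are uncertain. The 15 type I interferon response genes had a median of -0.04, with 3 higher and 2 lower past 2-fold. All 6 measured MHC class II genes were at least 2-fold lower in the PTIR1 gate (median -2.08, or -0.86 without the deepest mock barcode), and 4 of the 6 were below 5% of their level in an immune class, as free RNA could give. Their summed list had 3226 CPM (PTIR1) and 10106 CPM (mock) in macrophage barcodes. It ran the other way in B barcodes, at 23918 CPM and 23404 CPM, and in the CT26 marker comparator, at 344.0 CPM and 216.5 CPM.

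**Figure D4:**
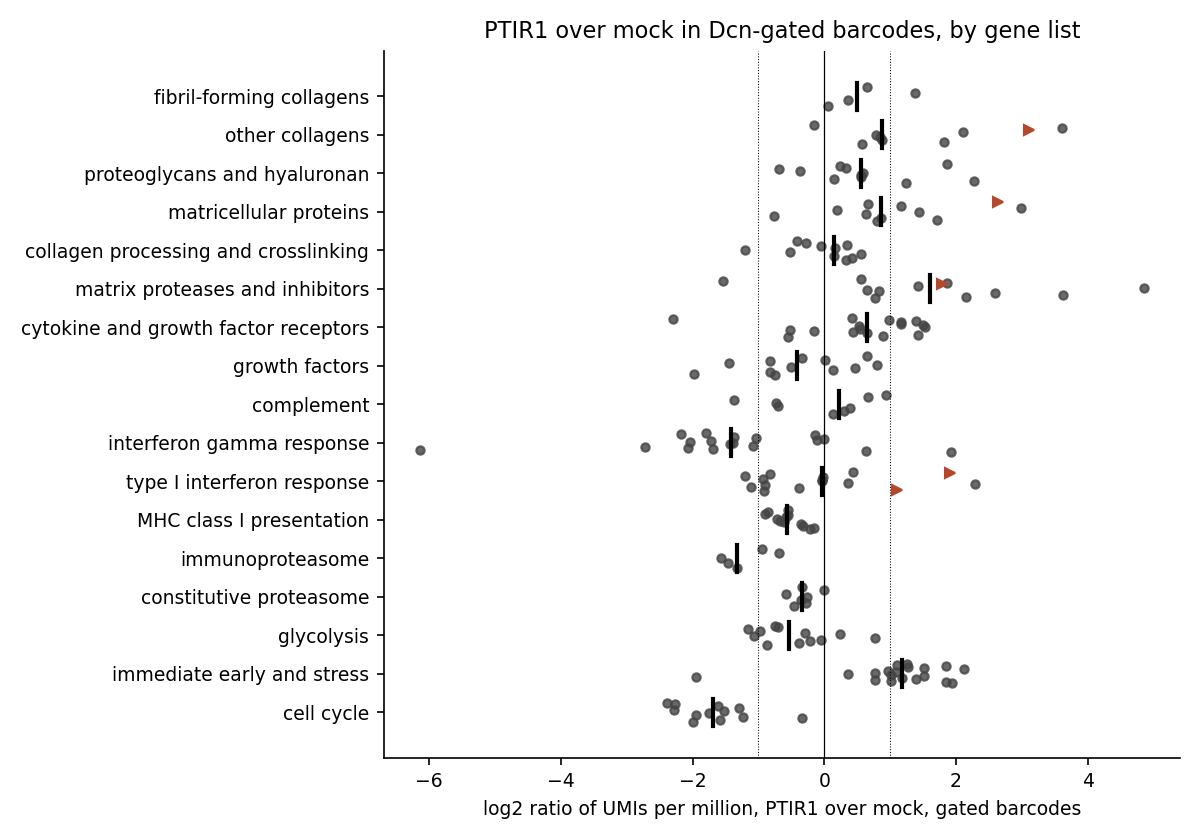
Log2 ratio of CPM, PTIR1 over mock, for the measured genes of 17 lists in Dcn-gated barcodes; points are genes, vertical bars list medians, dotted lines mark 2-fold, and arrowheads mark genes with 0 UMIs in the mock gate at their lower bound. Immediate early genes have a median of 1.19 and interferon gamma response genes of -1.41.

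Of the cell cycle genes 11 of 12 measured were at least 2-fold lower in the PTIR1 gate (median -1.69), and this rested largely on 1 mock barcode, which was not the deepest. Without the mock barcode with the most cell cycle UMIs, 4 of 10 measured genes were at least 2-fold lower (median -0.99). The summed list had a median of 279.3 CPM per gated PTIR1 barcode and 327.8 CPM per gated mock barcode. In the CT26 marker comparator these medians were 377.7 CPM (PTIR1) and 2501 CPM (mock). T and NK barcodes had 859.1 CPM and 847.1 CPM. Top2a, a topoisomerase of dividing cells, had 14.7 CPM in the PTIR1 gate and 45.1 CPM in the mock gate, where 31 of its 40 UMIs lay in that barcode. Without it the mock level was 11.9 CPM, so the direction turned. Of 12 glycolysis genes 2 were at least 2-fold lower and 0 higher (median -0.54). Pgk1, a glycolytic kinase, had 294.7 CPM in the PTIR1 gate and 657.3 CPM in the mock gate, and Ldha, which makes lactate, had 447.0 CPM and 938.0 CPM. Without the mock barcode that held the largest share of their UMIs, Pgk1 had 422.0 CPM and Ldha 645.5 CPM in the mock gate, and neither was 2-fold lower in PTIR1. The CT26 marker comparator ran in the same direction, with Pgk1 at 490.9 CPM (PTIR1) and 1191 CPM (mock). Nppb, a natriuretic peptide gene, Upp1, a uridine phosphorylase, Esm1, a secreted proteoglycan, and Tnfrsf12a, the receptor for TWEAK, were among the 12 genes furthest below mock. Tnfrsf12a had 64.5 CPM in the PTIR1 gate and 315.7 CPM in the mock gate, and 431.7 CPM and 578.8 CPM in the comparator.

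Chemokine and complement genes, which inflamed fibroblasts are known to express, were mixed. Of 12 measured inflammatory genes 5 were at least 2-fold higher and 1 at least 2-fold lower in the PTIR1 gate (median 0.51), and 4 of the 12 were at levels that free RNA could give. Cxcl1, a neutrophil chemokine, had 325.3 CPM in the PTIR1 gate and 172.5 CPM in the mock gate, and Cxcl5, a related chemokine, had 43.2 CPM and 4.51 CPM. Ccl2, a monocyte chemokine, had 359.8 CPM and 432.9 CPM, or 297.6 CPM in the mock gate without the barcode with the largest share of its UMIs, which turned the direction. Saa3, an acute-phase protein, had 11.4 CPM and 50.7 CPM, and all 45 of its mock UMIs lay in 1 barcode, the deepest. Without that barcode 6 inflammatory genes were higher and 0 lower past 2-fold (median 0.97). Of 8 complement genes 0 were higher and 1 lower past 2-fold (median 0.22), near the 8.11% and 4.05% of all measured genes. C1s1 had 237.0 CPM and 180.4 CPM. C3, the central complement protein, had 105.6 CPM and 171.4 CPM, and without the deepest mock barcode, which held 65.1% of the mock UMIs, the mock level was 73.1 CPM and the direction turned. Without that barcode 1 complement gene was higher and 0 lower past 2-fold (median 0.54). Markers of macrophages summed to 255.4 CPM in the PTIR1 gate and 192.8 CPM in the mock gate, and those of neutrophils to 55.2 CPM and 19.2 CPM. Lyz2, a macrophage lysozyme, made up most of the macrophage sum, with 182.1 CPM and 139.8 CPM. Their part in the differences was not tested.

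Clustering of the 399 barcodes gave 4 clusters, described by their leading genes. These genes are not results, since the clusters were cut from the same counts. Cell cycle genes such as Mcm5 were left out of the clustering but were read in the same barcodes. Cluster 1 held 118 PTIR1 and 8 mock barcodes and was led by Pwwp3b, Adgrl3, Col6a3 and Rerg. Cluster 2 held 158 PTIR1 and 3 mock barcodes and was led by Id1, Inmt, Slc1a2 and Sik1. Cluster 3 held 51 PTIR1 and 4 mock barcodes and was led by Ifi44, Basp1, Ifit3 and Gbp3, with S100a9 and S100a8 also among its first 12 genes. Cluster 4 held 51 PTIR1 and 6 mock barcodes and was led by Il1rl1, Il11, Upp1 and Mcm5. Fibrillar collagen genes summed to 2046, 1538, 1759 and 880.0 CPM in clusters 1 to 4, and proteoglycan genes to 1986, 2790, 2027 and 1026 CPM. Glycolysis genes were highest in cluster 4, at 6517 CPM against 3281 to 3833 CPM in the others, and so were cell cycle genes, at 686.9 CPM against 280.4 to 440.0 CPM. Immediate early genes were highest in cluster 2, at 25181 CPM. Cluster 3 had the highest interferon gamma response level (3216 CPM) and the lowest median depth (15264 UMIs). Its macrophage markers summed to 905.8 CPM in PTIR1 barcodes, above the other clusters of that library (129.9 to 217.0 CPM), and to 218.7 CPM in mock barcodes, within the range of the other clusters (142.6 to 276.3 CPM). The Y-linked level was 7.42 CPM in cluster 3 and 1.56 to 2.14 CPM in clusters 1, 2 and 4. Cluster 4 made up 13.5% of gated PTIR1 barcodes and 28.6% of gated mock barcodes, and cluster 2 made up 41.8% and 14.3%. The clusters were cut by genes that differ between the libraries, so these shares were not compared further.

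**Figure D5:**
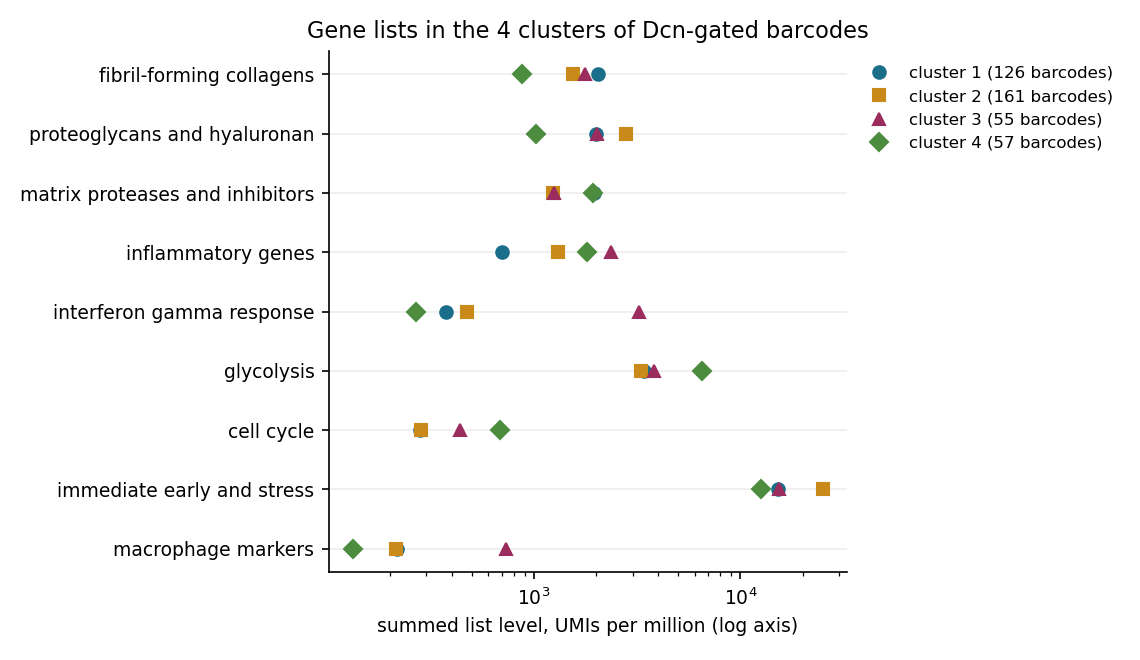
Summed level of 9 gene lists, in CPM on a log axis, in the 4 clusters of Dcn-gated barcodes from both libraries. Cluster 3 stands apart for interferon gamma response genes at 3216 CPM and cluster 4 for glycolysis genes at 6517 CPM.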

How the data were processed

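Single cells from 1 PTIR1-expressing and 1 mock CT26 tumour sample were captured with a 10x 3' kit. The deposited matrices hold whole-number UMI counts for 32285 gene rows. Per the file headers, Cell Ranger 5.0.0 made them. The submitters' processing notes also name Seurat 3.2.3 and mm10. Settings of the alignment and the annotation version were not given in the sources used here. The members and gene lists were chosen with earlier results of these data known, so no list is independent support.

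UMIs were summed over the barcodes of a class and divided by the class total, times 1000000 (CPM). Intervals at 95% are exact: conditional binomial for ratios, Poisson for levels, Clopper-Pearson for shares. They cover counting error only, since cells are not replicates. Genes with at least 50 UMIs over both sides were measured, leaving out mitochondrial and ribosomal protein genes and symbols carried by more than 1 identifier (38 symbols). A gene was flagged as possible free RNA where its level in the gate was under 5% of that in the highest comparator class with at least 100 barcodes. Comparator classes had at least 3 UMIs and 0.1% of UMIs from their markers and lay outside the gate. Genes named were the gate genes and Col3a1, the 15 highest over all other kept barcodes, and the 12 in each direction between libraries by the interval end nearest to 1. The 15 genes in each direction against the CT26 marker comparator were ranked by the end nearest to 1 in the library where it was less extreme. Examples from a list were picked with their values known, and not every gene that the rules select is described. Clustering used 1500 variable genes without cell cycle genes, 20 components, 15 neighbours and resolution 0.5. No doublet call was applied to the main values; removing the highest Scrublet scores was an alternative. The code for ratios was tested on simulated counts with known changes. Those counts were independent Poisson draws without spread between barcodes, so the simulation cannot speak to ratios that rest on single barcodes. Clusters came from scanpy 1.11.5, intervals from scipy 1.17.1 under Python 3.11.15, and trimmed-mean scaling, an alternative, from edgeR 4.0.16. In all, 14 alternatives were planned and 6 were added after seeing the data.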

Additional observations from a re-analysis of the deposited data

How the results depend on the processing

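With 1 library per group, neither the libraries nor the animals could be varied, and the mock values rest on 21 barcodes. No paired analysis was possible because each group had 1 library. Leaving out replicates and ratios within clusters could not be run, the last because no cluster held 15 barcodes in each library. The log2 ratio of the gate's share, 4.19, ranged from 2.80 (thinned to 1000 UMIs, at least 1 UMI of the gate genes) to 4.65. The pooled Y-linked level, 2.38 CPM, was 1.40 CPM with the gate genes at 0.3% of UMIs and 8.36 CPM with no limit on Ptprc. Against the CT26 marker comparator, the 185 higher and 365 lower genes became 286 and 185 with a gate on Col1a1, Col1a2, Col6a2 and Serpinf1. The higher genes numbered 90 without gated barcodes that pass the CT26 marker gate, and 73 against all other barcodes with no Ptprc UMI and at least 10000 UMIs, an alternative added after seeing the data. Between the libraries, the 366 lower genes became 1197 with no minimum beyond 1 UMI in each library. The 733 higher and 366 lower became 236 and 124 with at least 200 UMIs. The numbers of genes tested under these alternatives, and under those against the comparator, are not given here. Such counts therefore cannot be read as shares or set beside the shares of the main values. With the gate genes at 0.3% of UMIs the median of elastic fibre genes was -0.054 rather than 0.80 and that of IGF binding proteins -0.0088 rather than 0.56. With no minimum the median of inflammatory genes was -0.15 rather than 0.51. The cause was not tested. Of 626 values for single genes under 18 settings, 493 stayed within the counting interval, 133 moved by more, and 0 of those for genes past 2-fold changed sign. The limits of 1 and 200 UMIs changed which genes were measured, not their ratios, so single-gene values could not move there. Centring on the median of all measured genes and trimmed-mean scaling lowered every log2 ratio by only 0.043 and 0.029. The counts of stable values include these fixed outcomes. Of 493 list medians 389 stayed within 0.25 (log2), 101 moved by more and 3 reversed. The median of interferon gamma genes ranged from -1.69 to -0.24 and that of immediate early genes from 0.83 to 1.26. That of cell cycle genes ranged from -2.32 to -0.82.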

Other observations

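Of 17 measured receptor genes 6 were at least 2-fold higher and 1, Tnfrsf12a, at least 2-fold lower in the PTIR1 gate than in the mock gate (median log2 ratio 0.66), where 8.11% of all 9040 measured genes were higher and 4.05% lower. Fgfr1, a fibroblast growth factor receptor, had 259.5 CPM in gated PTIR1 barcodes and 97.0 CPM in gated mock barcodes, a ratio of 2.68 (2.16 to 3.36). Il1r1, the receptor for interleukin 1, had 68.4 CPM and 23.7 CPM, and the transforming growth factor beta receptor Tgfbr2 had 38.5 CPM and 14.7 CPM. Of 12 measured growth factors 0 were higher and 2 lower past 2-fold (median -0.42). Areg (amphiregulin), a ligand of the epidermal growth factor receptor and 1 of the genes that define the CT26 marker comparator, had 14.0 CPM in the PTIR1 gate and 55.2 CPM in the mock gate. Grem1 (gremlin), an antagonist of bone morphogenetic proteins, had 99.99 CPM and 29.3 CPM, and Dkk2, a Wnt modulator, had 146.0 CPM and 34.95 CPM. Without the mock barcode that held the largest share of the gene's UMIs, the mock level was 36.2 CPM for Areg, 19.3 CPM for Grem1 and 19.7 CPM for Dkk2.

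Genes used to mark adventitial fibroblasts were present in the gate in part. Igfbp6 had 681.1 CPM in the PTIR1 gate and 766.7 CPM in the mock gate, Anxa3 205.3 CPM and 276.2 CPM, and Cd34 166.9 CPM and 199.6 CPM. Dpp4, Sema3c, Efhd1 and Dact2 had 0 UMIs in both. Of 7 measured genes of the list, 1 was at least 2-fold higher and 2 at least 2-fold lower in the PTIR1 gate (median -0.26), beside the same 8.11% and 4.05% of all genes. Without the deepest mock barcode 0 were higher and 2 lower. Ly6a, the surface antigen Sca-1, had 211.2 CPM in the PTIR1 gate and 879.4 CPM in the mock gate, and Ly6c1 had 69.2 CPM and 239.0 CPM. Without the deepest mock barcode the mock level was 553.1 CPM for Ly6a and 187.6 CPM for Ly6c1. Pi16, a peptidase inhibitor that marks that state, had 2 UMIs in the PTIR1 gate and 1 UMI in the mock gate.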
